A study of Drosophila melanogaster with 6 samples.

Results

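Iron and metal binding genes encode the proteins that store, carry and buffer iron, copper and zinc. A total of 10 such genes was followed here: the ferritins Fer1HCH, Fer2LCH and Fer3HCH, the transferrins Tsf1, Tsf2 and Tsf3, the metallothioneins MtnA and MtnB, the metal transporter Mvl and the frataxin gene fh. The genes were fixed by name, and every probe set that the platform annotation pairs with 1 of them alone was taken, whatever its values. All 10 genes were found, on 12 of the 18769 probe sets tested, and each gene had a single probe set except Tsf1, which had 3. The whole bodies of virgin males of the w1118 strain, which carries a mutation of the white gene in both groups, were measured on Affymetrix Drosophila Genome 2.0 arrays after 24 h of feeding, at 5 days of age when the feeding began. The METH group ate a diet with 0.6% (w/v) methamphetamine (METH) and the control group the same blue diet without it. Each sample pooled 20 flies, and there were 3 biological replicates per diet. With RNA of whole bodies, fewer cells of a type and less RNA per cell cannot be told apart.

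Iron is needed for heme, for iron-sulfur clusters and for many oxidases, but free ferrous iron reacts with hydrogen peroxide to give hydroxyl radicals. Cells therefore hold iron inside ferritin, a hollow shell built of heavy chains, which oxidize iron, and light chains, which help it to form a mineral core. In Drosophila the main ferritin is secreted and enriched in the iron region of the midgut, while transferrin carries iron in the hemolymph. Metallothioneins are short cysteine-rich proteins that bind copper, zinc and cadmium, and their genes are switched on by the metal-responsive factor MTF-1.

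The probe set signals were compared on the log2 scale after the signal of AFFX-Dros-ACTIN_M_r, the actin probe set that the study used as its reference, was subtracted on each array, and values are given as a percentage of this reference. Control arrays read 922 to 1218 for this reference and METH arrays 699.99 to 868, so dividing by it raises every METH value, and the median probe set had a log2 fold change of 0.24. A log2 fold change (METH minus control) is therefore read against 0.24 as well as against 0. With the signals as deposited that median was -0.13, and it was 0.02 to 0.05 after median centring, 75th percentile centring or quantile normalization. Arrays of the same diet had rank correlations of 0.968 to 0.975, and arrays of different diets 0.966 to 0.972. Adjusted p values and standard errors (SE) are from limma with the Benjamini-Hochberg method over all probe sets, at a threshold of 0.05, and a test of 3 arrays against 3 by exact permutation cannot give a p below 0.1.

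None of the 10 genes passed limma's adjusted threshold between METH-treated and control flies, where 1.26% of all probe sets did (0.842% higher and 0.416% lower). Before adjustment, at a p under 0.05, 1 gene was higher, Fer3HCH, and 1 was lower, MtnB, beside 9.38% and 2.12% of all probe sets (11.5% in all). The methods' t-test, at p of at most 0.005 and at least 1.5-fold, called none of the 10 genes and 1.18% of all probe sets. At p below 0.008, the looser cutoff used for the pathway lists, it again called none of the 10 and 1.58% of all probe sets. The median log2 fold change of the 10 genes was 0.29, and 7 lay above the median probe set and 3 below it. The METH values lay above every control value for 3 genes, Fer1HCH, Fer2LCH and Tsf2, and below them for none, whereas 15.7% of all probe sets lay above and 2.58% below. With the signals as deposited it was the reverse, as 3 genes (Tsf3, Mvl and MtnB) lay below every control value and none above, where 13.6% of all probe sets lay below and 2.61% above. In both cases the members' count follows the direction in which the scaling moves all probe sets.

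**Figure D1:**
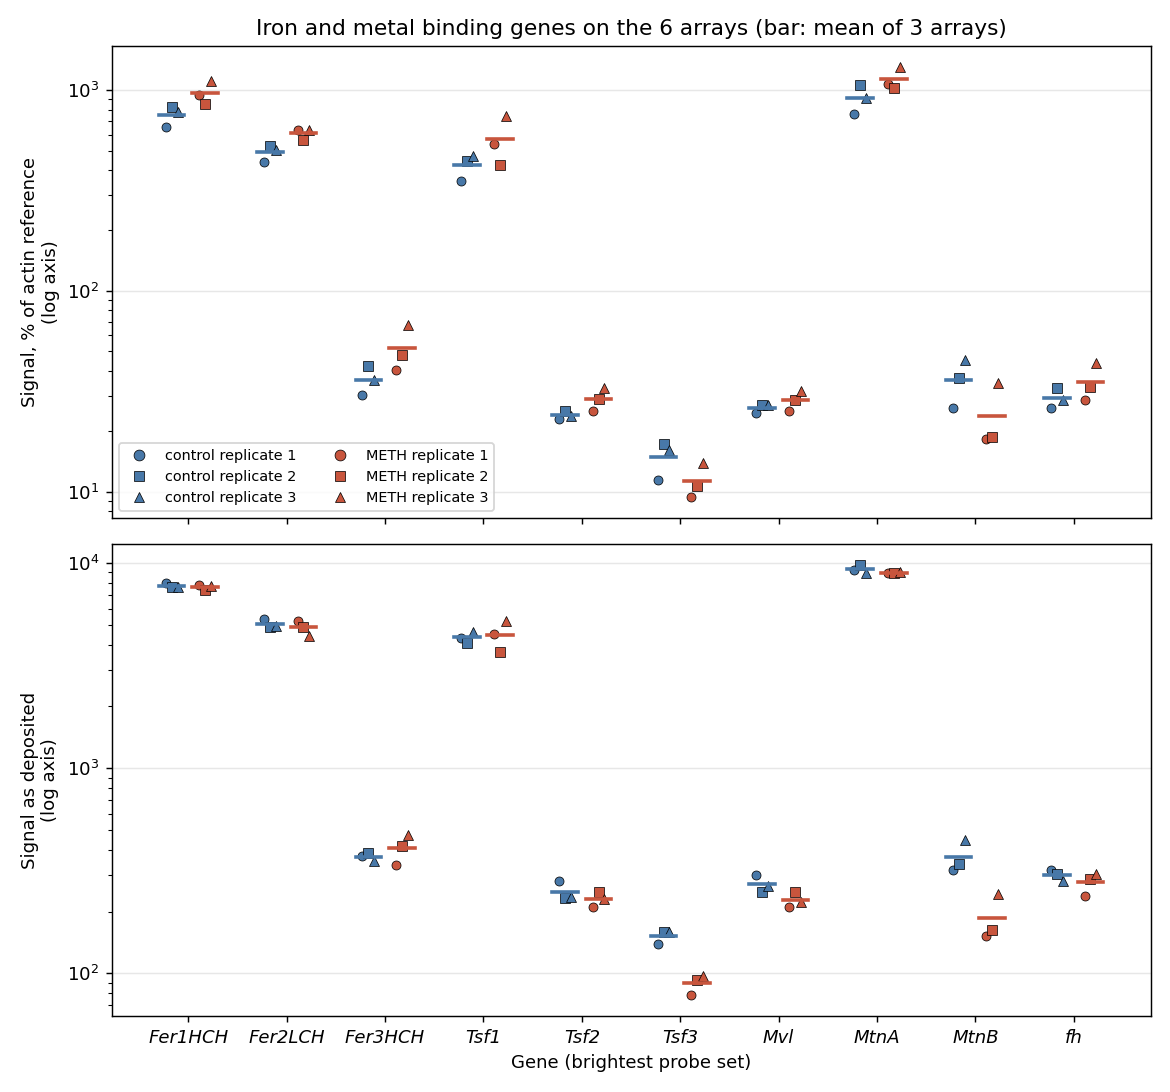
Signals of the 10 genes on the 6 arrays, as a percentage of the actin reference (top) and as deposited (bottom), both on log axes; blue points are control arrays, red points METH arrays, the marker shape is the replicate number and bars are means of 3 arrays. MtnB and Tsf3 are lower on the METH arrays without overlap in the bottom panel (for MtnB 151 to 243 against 317 to 448), and their diets overlap in the top panel.

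Fer1HCH encodes the heavy chain of the main ferritin, and the study's proteomic list, which was measured separately, contains its protein as one of lower abundance. The arrays show how the transcript stood in flies fed in the same way. Its signal was 655, 828 and 776% of the actin reference on the control arrays and 940.5, 849 and 1108% on the METH arrays. The METH values were thus the higher ones on this scale, with no overlap, but the deposited signals overlapped almost entirely, at 7971, 7641 and 7632 for control and 7819, 7377 and 7757 for METH flies. The mean went from 753 ± 89.1 to 966 ± 131% (SD, n = 3 each), a log2 fold change of 0.36 (SE 0.23, adjusted p = 0.491 by limma). As a ratio this was 1.28, with a 95% interval from 0.91 to 1.81. Over the scalings tried, the lowest lower bound of this interval was 0.83, with median centring. With the signals as deposited the ratio was 0.99, with a 95% interval from 0.86 to 1.13. Fer1HCH was among the brightest probe sets, with 50 to 80 others brighter and at 70.9 to 75.8% of the highest signal of its array. Whether the response of the array was still linear at this brightness was not tested.

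Fer2LCH, which encodes the light chain, lies next to Fer1HCH on chromosome arm 3R. Its signal was 439, 528 and 502% of the actin reference in control flies and 629.6, 563 and 632% in METH-treated flies, a log2 fold change of 0.32 (SE 0.20, adjusted p = 0.488 by limma). As with the heavy chain, the diets were apart with the actin reference and overlapped as deposited, at 4868 to 5347 for control and 4427 to 5235 for METH. The difference between the log2 signals of both chains on the same array is the same whatever reference is subtracted. It was 0.58, 0.65 and 0.63 in control and 0.58, 0.59 and 0.81 in METH-treated flies, and its means differed by 0.04 (exact permutation test, two-sided, p = 0.8). Without METH replicate 3, the array that lay apart in this measure, the difference of the means was -0.03, and with any other array left out it was at most 0.08.

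Fer3HCH encodes a ferritin heavy chain of the mitochondrion and had the highest log2 fold change of the members. Its signal was 30.5, 42.1 and 35.8% of the actin reference in control flies and 40.4, 48.0 and 67.3% in METH-treated flies. The diets overlapped because METH replicate 1 lay below control replicate 2, and METH replicate 3 was the highest array. After median centring, 75th percentile centring or quantile normalization every METH value of Fer3HCH lay above every control value, as for 7.33, 6.67 and 7.3% of all probe sets. The log2 fold change was 0.50 (SE 0.20, 95% interval 0.07 to 0.94, adjusted p = 0.411 by limma, and 0.0274 before adjustment). It stayed above 0 under the other scalings, at 0.13 to 0.31, with 95% intervals that included 0, and it was 0.30 without METH replicate 3.

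**Figure D2:**
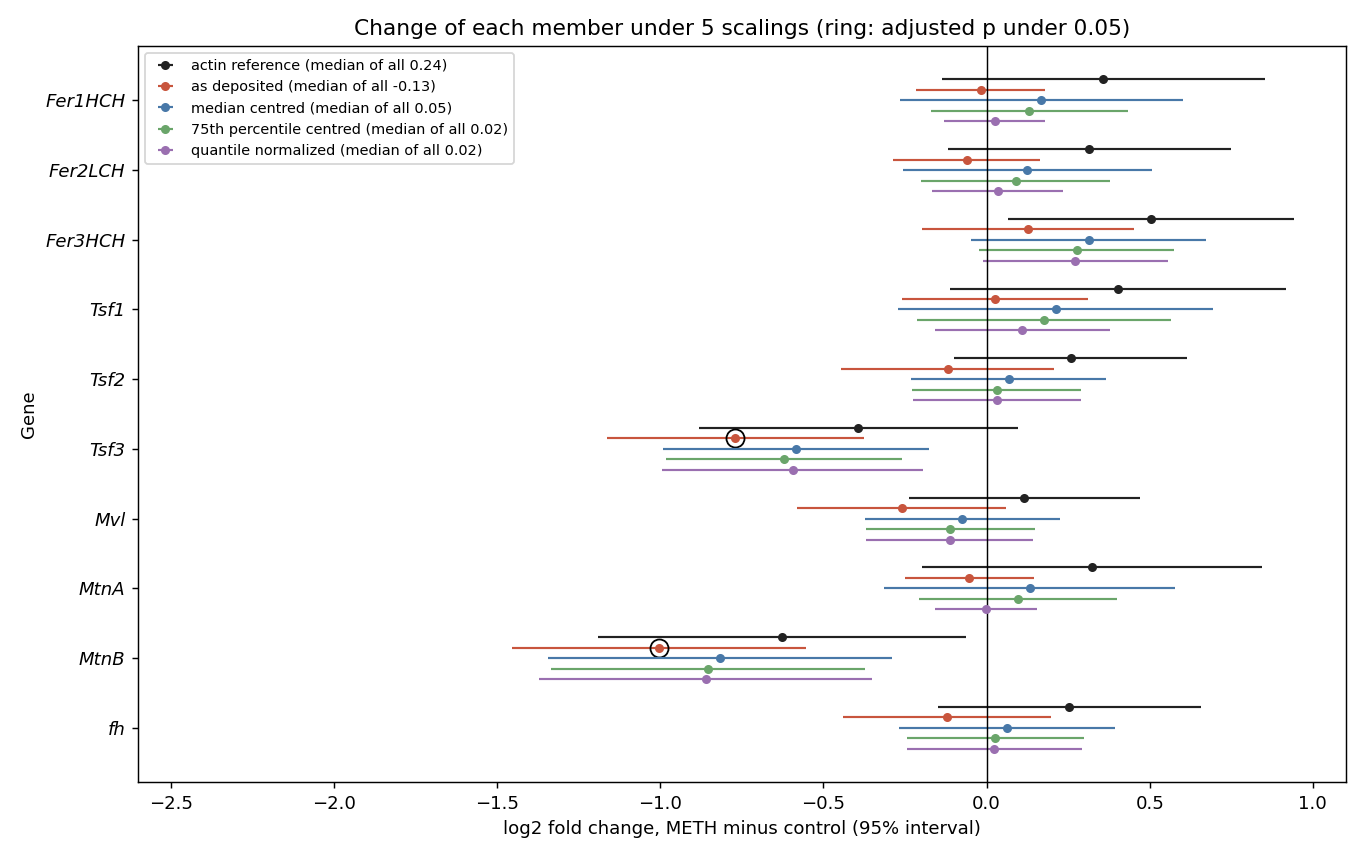
Log2 fold changes of the 10 genes (METH minus control, n = 3 each) with 95% intervals from limma under 5 scalings of the arrays, with rings where the adjusted p was under 0.05. Rings mark Tsf3 (-0.77) and MtnB (-1.003) with the signals as deposited only, and both genes lie left of 0 under every scaling shown.

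None of the 3 transferrins passed with the actin reference, and their changes were not tested against each other. Tsf1 encodes the abundant iron carrier of the hemolymph, made largely by the fat body. Its brightest probe set read 354, 443 and 468% of the actin reference in control flies and 541, 422 and 742% in METH-treated flies. METH replicate 3 was the highest and METH replicate 2 lay within the control range, and the log2 fold change was 0.40 (SE 0.24, adjusted p = 0.474 by limma). The next probe set of Tsf1 gave the same change, 0.40 (SE 0.21), from 134 ± 22.0 to 179.9 ± 49.2% (SD, n = 3 each). The third, with signals of 0.896 to 9.05, was under the 20th percentile of all probe sets on 3 of the 6 arrays, and its log2 fold change of -1.15 had a SE of 0.92. Averaging it with the others turned the sign for Tsf1 to -0.11. Deposited signals of the brightest probe set were 4086 to 4601 in control and 3665 to 5196 in METH-treated flies, so that the ratio was 1.02 (95% interval 0.84 to 1.24).

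Tsf2, whose product is needed for the septate junctions that seal epithelia, read 23.1, 25.3 and 23.9% of the actin reference in control flies and 25.4, 28.8 and 32.7% in METH-treated flies. All METH values lay above all control values, by little for replicate 1, and the log2 fold change of 0.26 (SE 0.17, adjusted p = 0.491 by limma) was close to that of the median probe set. Under the other scalings it was -0.12 to 0.07.

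Tsf3, another member of the transferrin family, was the one transferrin whose mean was lower in METH-treated flies under every scaling. Its signals were 139, 159 and 159 on the control arrays and 78.5, 92.7 and 97.1 on the METH arrays as deposited, with no overlap. As a percentage of the actin reference they were 11.4, 17.2 and 16.1 against 9.45, 10.7 and 13.9, with METH replicate 3 above control replicate 1. The log2 fold change was -0.39 (SE 0.23, adjusted p = 0.467 by limma) with the actin reference. With the signals as deposited it was -0.77 (SE 0.18) and passed the threshold with an adjusted p of 0.048, a scaling in which 2.64% of all probe sets passed and 2.03% were lower. With the centred and quantile normalized values it was -0.58 to -0.62 with adjusted p values of 0.117 to 0.275, and the diets did not overlap in any of these. With median centring, 75th percentile centring and quantile normalization 1.6, 1.91 and 2.26% of all probe sets passed, and 5.7, 7.33 and 7.48% lay below every control value. The direction was the same without any 1 array, at -0.58 to -0.27.

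Mvl encodes Malvolio, a divalent metal transporter of the NRAMP family that moves iron and manganese across membranes and is known in Drosophila for its part in taste behaviour. It read 24.7, 27.0 and 27.0% of the actin reference in control flies and 25.2, 28.6 and 31.8% in METH-treated flies. The log2 fold change was 0.12 (SE 0.16, adjusted p = 0.746 by limma), and under every other scaling it was below 0, at -0.26 to -0.07. No direction can be given for Mvl.

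Neither of the metallothioneins MtnA and MtnB passed with the actin reference. MtnA, known for its response to copper, had 6 to 12 probe sets brighter than its own on an array and reached 85.1 to 90.3% of the highest signal. Its signals as deposited were 9259, 9729 and 8972 in control and 8952, 8904 and 9081 in METH-treated flies. With the actin reference the values were 760.4, 1055 and 912% against 1077, 1025 and 1297%, which overlapped, for a log2 fold change of 0.32 (SE 0.24, adjusted p = 0.541 by limma). It was below 0 with the signals as deposited and after quantile normalization, at -0.05 and -0.00. Whether the array response was still linear at this brightness was not tested for MtnA either.

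MtnB, known for its response to cadmium, had the lowest log2 fold change of the members on their brightest probe sets. Its signals as deposited were 317, 339 and 448 on the control arrays and 151, 162 and 243 on the METH arrays, so that the highest METH value stayed under the lowest control value. As a percentage of the actin reference the values were 26.0, 36.8 and 45.5 against 18.2, 18.7 and 34.8, and METH replicate 3 lay above control replicate 1. The mean went from 36.1 ± 9.75 to 23.9 ± 9.43% (SD, n = 3 each), a log2 fold change of -0.63 (SE 0.26, 95% interval -1.19 to -0.06, adjusted p = 0.422 by limma, and 0.0321 before adjustment). With the signals as deposited the log2 fold change was -1.003 (SE 0.20), or a ratio of 0.50 with a 95% interval from 0.37 to 0.68, and passed the threshold (adjusted p = 0.0243). With the centred and quantile normalized values it was -0.82 to -0.86 with adjusted p values of 0.101 to 0.198. The diets overlapped for MtnB after median centring. With 75th percentile centring and quantile normalization its METH values lay below every control value, as for 7.33 and 7.48% of all probe sets. The log2 fold change with the actin reference was little changed in direction by single arrays. It was -0.93 to -0.44 without any 1 array.

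The difference between MtnA and MtnB on the same array, which is the same whatever reference is subtracted, was 4.87, 4.84 and 4.32 on the log2 scale in control flies and 5.89, 5.78 and 5.22 in METH-treated flies. All METH values lay above all control values, with replicate 3 the lowest of each diet. The means were 4.68 ± 0.31 and 5.63 ± 0.36 (SD, n = 3 each) and differed by 0.95 (exact permutation test, two-sided, p = 0.1, the smallest that this design allows). The difference of the means was between 0.77 and 1.15 without any 1 array. MtnA was close to the highest signal of every array, and its part in this difference through a response that was no longer linear was not tested.

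**Figure D3:**
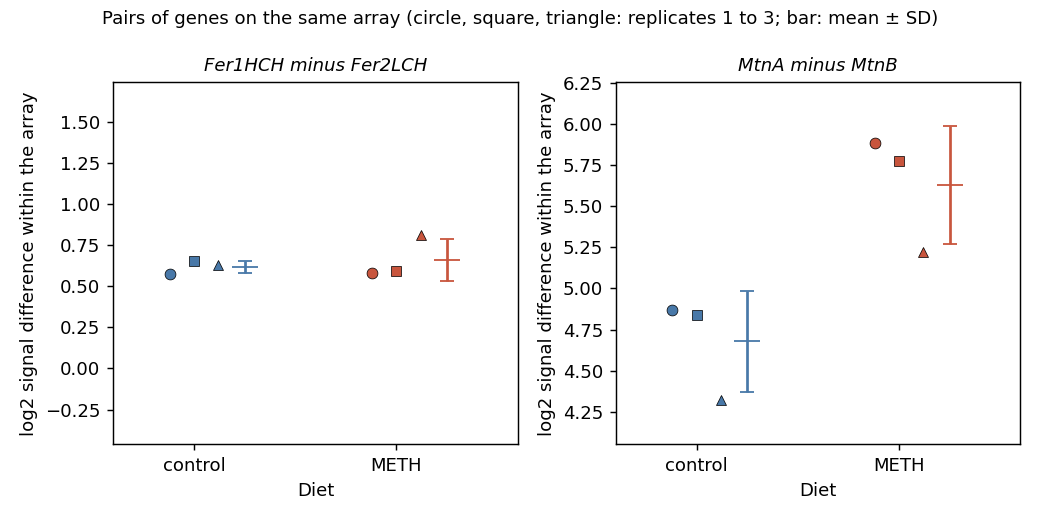
Differences of log2 signals between 2 genes on the same array, for the ferritin chains (left) and for MtnA and MtnB (right), by diet, with each array as a point and mean ± SD (n = 3) as bars; both vertical axes span the same range. The ferritin difference overlaps between the diets (means 0.62 and 0.66), and the metallothionein difference is larger on every METH array (5.22 to 5.89) than on every control array (4.32 to 4.87).

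The other metallothioneins with a probe set were MtnC and MtnD. MtnC averaged 266 ± 89.0% of the actin reference in control and 223 ± 23.0% in METH-treated flies (SD, n = 3 each), for a log2 fold change of -0.20 (SE 0.23, adjusted p = 0.682 by limma), with control replicate 2 the highest at 360.2%. MtnD averaged 91.95 ± 11.04% and 114 ± 19.3%, for a log2 fold change of 0.31 (SE 0.18). MTF-1 had a log2 fold change of 0.17 (SE 0.17, adjusted p = 0.64). MtnE had no probe set paired with it in the annotation and was not analysed here.

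The gene fh encodes frataxin, which takes part in the assembly of iron-sulfur clusters in mitochondria and whose human counterpart is deficient in Friedreich ataxia. It read 26.2, 32.9 and 28.6% of the actin reference in control flies and 28.7, 33.3 and 43.6% in METH-treated flies. The diets overlapped, with METH replicate 3 the highest, and the log2 fold change was 0.25 (SE 0.19, adjusted p = 0.534 by limma). That is the change of the median probe set, and it was -0.12 to 0.06 under the other scalings.

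Besides the 10 members, 42 of 47 other listed genes of iron, copper and zinc handling were measured. At an adjusted p under 0.05 by limma, 1 of these was higher and none was lower, beside 0.842% and 0.416% of all probe sets. The methods' t-test also called 1 at either cutoff. It called 1.18% of all probe sets at p of at most 0.005 and 1.58% at p below 0.008. Before adjustment, 9 had a p under 0.05 and were higher and 2 were lower, beside 9.38% and 2.12% of all probe sets. Their median log2 fold change was 0.24, equal to that of all probe sets, with 22 above and 20 below it.

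The gene that passed was Fdx2, which encodes a mitochondrial ferredoxin, an electron carrier with an iron-sulfur cluster. It was at 82.9, 79.7 and 88.6% of the actin reference in control flies and at 209, 175 and 226% in METH-treated flies. No METH value overlapped the control values, which also held for the deposited signals, 735 to 1009.7 against 1520.1 to 1735. Fdx2 rose from a mean of 83.7 ± 4.48% to one of 203 ± 26.1% (SD, n = 3 each), with a log2 fold change of 1.27 (SE 0.16, adjusted p = 7.84e-04 by limma). It passed under every scaling and without any 1 array, and it did not pass when limma's spread was not allowed to vary with signal (adjusted p = 0.0972) or by the methods' t-test after Benjamini-Hochberg adjustment (0.140).

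Of the 11 measured genes of mitochondrial iron, iron-sulfur clusters and heme besides fh, Fdx2 was the one that passed, and 7 (Fdx2 among them) were higher with a p under 0.05 before adjustment, beside 9.38% of all probe sets. All 11 had a log2 fold change above 0 with the actin reference, as did 74.5% of all probe sets, and 10 lay above the median probe set. After Fdx2 the largest was Fdx1, the other ferredoxin gene, at 0.55 (SE 0.16, adjusted p = 0.212 by limma), which was at 23.1 to 26.3% of the actin reference in control and 31.9 to 41.0% in METH-treated flies. Alas, the first enzyme of heme synthesis, had 0.53 (SE 0.20), and its values of 378 to 436% in control and 516 to 699.9% in METH-treated flies did not overlap. The deposited signals of both Fdx1 and Alas overlapped between the diets, for Alas at 4012 to 4603 in control and 4478 to 4899 in METH-treated flies. The later heme enzymes Urod, Ppox and FeCH had 0.47, 0.45 and 0.40 (for FeCH 0.16, with an unadjusted limma p of 0.461, when its probe sets were averaged), and Nfs1, the cysteine desulfurase that supplies sulfur for the clusters, had 0.44. With the signals as deposited the changes of these 6 genes were 0.02 to 0.17, and none of the 6 passed under any of the 5 scalings.

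Of 6 genes of iron sensing and export, 2 were higher at an unadjusted p under 0.05 and none passed after adjustment. Mco1, a multicopper oxidase, was at 5.93, 10.2 and 6.99% of the actin reference in control flies and 14.4, 18.1 and 13.7% in METH-treated flies, without overlap, with a log2 fold change of 1.03 (SE 0.24, adjusted p = 0.0647 by limma). Its adjusted p was 0.0604 to 0.263 under the other scalings, and 0.0182 without control replicate 2. Irp-1B, an iron regulatory protein related to cytosolic aconitase, had 0.46 (SE 0.17, adjusted p = 0.351), and its paralogue Irp-1A had 0.28 (SE 0.18). Mco3 had the largest fitted change of this group, 1.29, on a probe set under the 20th percentile of signal on all 6 arrays, with a SE of 0.96.

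Genes of copper and zinc transport lay more often below the median probe set than above it, 4 of 6 and 12 of 16. None of 6 copper genes passed, and their log2 fold changes were -0.16 to 0.24, with the copper importers Ctr1A and Ctr1B at -0.13 and -0.16 and the copper pump ATP7 at 0.24. Of 16 zinc transporters none passed and 2 were lower at an unadjusted p under 0.05. Zip42C.1, a zinc importer, was dim, at 22.6, 17.5 and 27.0 on the control arrays and 3.48, 6.68 and 10.3 on the METH arrays as deposited (log2 fold change -1.45, SE 0.54, adjusted p = 0.363 by limma). ZnT77C was at 7.38, 7.44 and 8.66% of the actin reference in control flies and 5.51, 5.25 and 5.76% in METH-treated flies (log2 fold change -0.50, SE 0.23, adjusted p = 0.434).

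**Figure D4:**
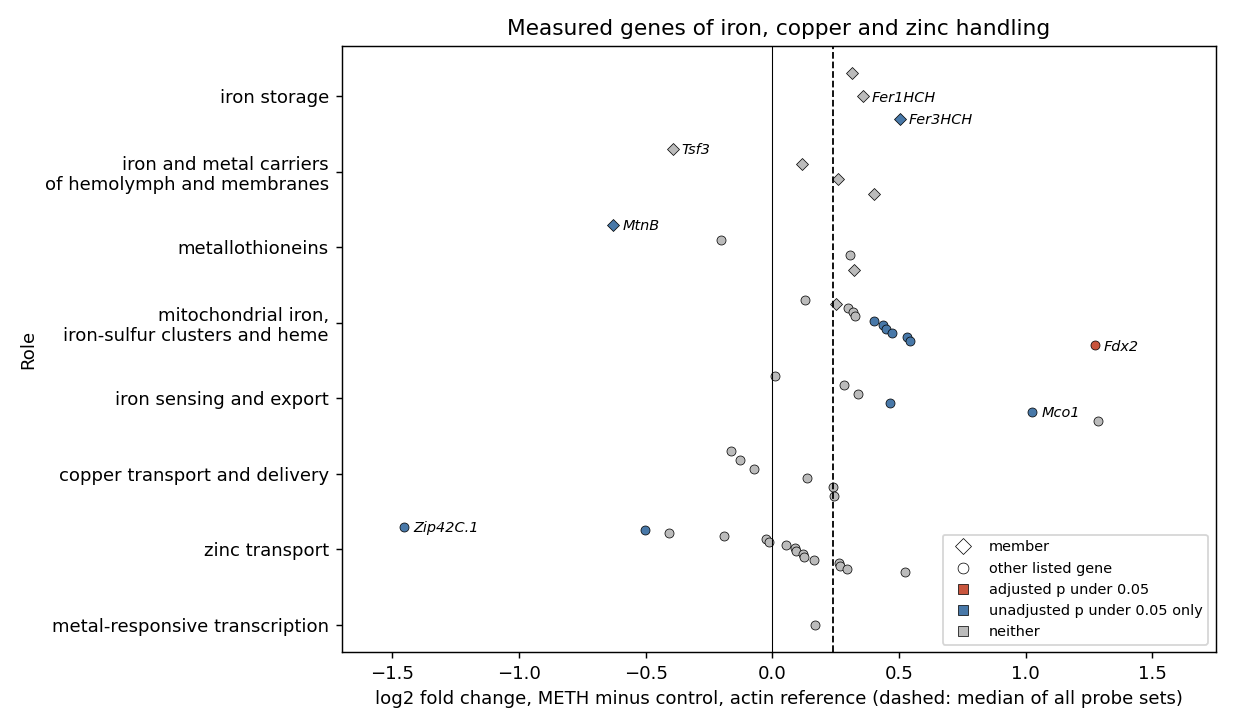
Log2 fold changes (METH minus control, actin reference, n = 3 each) of 52 measured genes by role, with the 10 members as diamonds; the dashed line is the median of all probe sets, 0.24. Fdx2 (1.27) alone passes the adjusted threshold, MtnB (-0.63) and Fer3HCH (0.50) are the members with a p under 0.05 before adjustment, and zinc and copper transporters lie mostly left of the dashed line.

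Tissue markers were read from the same arrays, since ferritin, metallothioneins and zinc importers are strong in the midgut. Marker calls were made on the actin reference, where 0.416% of all probe sets were lower and 0.842% higher. Of 8 measured midgut markers 3 were lower (Jon25Bi, Jon25Bii and mag) and none was higher. Their summed signal as deposited was 25717 to 28019 in control flies and 20018 to 20512 in METH-treated flies, while relative to the actin reference the sums overlapped, at 2145 to 3038% and 2305 to 2885%. The median log2 fold change of the 8 midgut markers was -0.71 with the actin reference, beside 0.24 for all probe sets. Of 6 accessory gland markers 2 were lower, Acp26Aa and Acp76A. Their sums were 18938 to 21734 and 11708 to 14672 as deposited and overlapped relative to the actin reference, at 1591 to 2356% and 1408 to 2096%. The median log2 fold change of the 6 accessory gland markers was -0.56 with the actin reference. None of 5 fat body, 6 hemocyte, 6 muscle, 4 photoreceptor or 7 testis markers passed limma's adjusted threshold, and of 3 markers of the Malpighian tubule 1 was higher, Cyp4e3. As deposited, the fat body sums were 10885 to 12083 in control and 9706 to 10568 in METH-treated flies, and the hemocyte sums 1933 to 2110.2 and 1297 to 1766. Relative to the actin reference both overlapped, at 992 to 1310.1% and 1167 to 1399% for fat body and 173 to 209.6% and 156 to 221% for hemocytes. Muscle sums as deposited were also apart, at 15757 to 20908 in control and 12541 to 15280 in METH-treated flies. So were photoreceptor sums, by little, at 16902 to 17934.5 and 16373 to 16882. Both of these overlapped relative to the actin reference. Testis and Malpighian tubule sums overlapped as deposited. Relative to the actin reference testis sums overlapped by little, at 1307 to 1973% in control and 1964 to 2431% in METH-treated flies. With that reference the median log2 fold change was 0.40 for testis, 0.31 for photoreceptor and 0.12 for Malpighian tubule markers. It was 0.02 for muscle, -0.05 for hemocyte and -0.08 for fat body markers. Lower sums on the deposited scale, where the median probe set was at -0.13, were thus not limited to midgut, accessory gland, fat body and hemocytes. The part of the tissue markers in the values of MtnB, Tsf3, Fer3HCH, the other members and Zip42C.1 was not tested. Markers of the ovary and yolk summed to 108 to 164 as deposited over 6 genes on all arrays, low for males, while the 7 testis markers summed to 15911 to 18537 and the 6 accessory gland markers to at least 11708, as the label of male bodies requires. Most of the ovary and yolk sum came from Yp3, at 79.1 to 127.6. That was above the median signal of every array (51.7 to 70.3). No measured midgut, hemocyte or accessory gland marker lay under the 20th percentile of signal.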

How the data were processed

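RNA of whole male flies was measured on 6 arrays, 3 per diet, grouped by the diet in the sample titles. Per the labels, the authors quantified the arrays with GCOS 1.4. The values they deposited are signal intensities on a linear scale. Whether the arrays were scaled to a common target is not given in the sources used here, and no detection calls were used.

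After a log2 transform, each array's AFFX-Dros-ACTIN_M_r value was subtracted. The 183 AFFX probe sets were left out and 18769 were tested, with no filter, in limma 3.58.1 under R 4.3.3 (lmFit and eBayes with trend, two-sided, Benjamini-Hochberg over all). The annotation names 1 gene for 13647 probe sets, several for 402 and none for 4720, and symbols were updated through Entrez identifiers. Genes with several probe sets are given by the brightest one. Standard deviations are over 3 arrays, p values measure the spread between pooled samples, and the number of arrays limits the precision. The fit was tested on simulated data with noise drawn separately for each probe set. An error shared by all probe sets of an array, such as that of the actin reference, was not simulated. Plots used Python 3.11.15 and matplotlib 3.10.9.

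The members, the lists of 57 metal handling genes (52 measured) and of tissue markers, and the tests were chosen with earlier results of these data known. Named genes are every member, other listed genes at an unadjusted p under 0.05, past the adjusted threshold under any scaling or among the 5 largest changes, and markers past the threshold. MtnC, MtnD, MTF-1, Irp-1A, Ctr1A, Ctr1B, ATP7 and Yp3 were named after their values were seen. Alternatives were 4 other scalings, a filter at the 40th percentile of signal, a floor at the 20th percentile, no trend, the methods' t-test (its cutoff of p at most 0.005 was added after the data were seen), the replicate number as a block, each array left out, and averaged probe sets per gene. The SAM test of the study's methods and its proteomic data were not used here.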

Additional observations from a re-analysis of the deposited data

How the results depend on the processing

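With the actin reference none of the 10 members passed the threshold, and 0 did with any 1 array left out, while 2 passed with the signals as deposited (both lower: Tsf3 at -0.77 and MtnB at -1.003) and 2 with the replicate block (Fer3HCH at 0.50, adjusted p = 0.0253, and MtnB at -0.63, adjusted p = 0.00411). Of all 18769 probe sets the block called 1033 higher and 260 lower, beside 158 and 78 without it. Signs turned with the signals as deposited for Fer1HCH (-0.018), Fer2LCH (-0.061), Tsf2 (-0.12), Mvl (-0.26), MtnA (-0.053) and fh (-0.12). They also turned for Mvl with median centring (-0.075), 75th percentile centring (-0.11) and quantile normalization (-0.11), for MtnA with quantile normalization (-0.0016), and for Tsf1 with the mean of its probe sets (-0.11). The shift of all probe sets by the actin reference is by construction; the causes of the other changes were not tested.

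With 1 array left out, log2 fold changes were 0.25 to 0.45 for Fer1HCH, 0.24 to 0.37 for Fer2LCH, 0.30 to 0.67 for Fer3HCH, 0.19 to 0.60 for Tsf1, 0.17 to 0.35 for Tsf2, -0.58 to -0.27 for Tsf3, 0.03 to 0.20 for Mvl, 0.20 to 0.44 for MtnA, -0.93 to -0.44 for MtnB and 0.09 to 0.39 for fh. The ferritin difference was -0.032 to 0.083 and the metallothionein difference 0.77 to 1.15. Of the other listed genes, 1 passed and 1 to 2 with an array left out (Mco1 joined Fdx2 without control replicate 2), 2 without dim probe sets, 5 with the replicate block, and 0 without the trend or by the methods' t-test after Benjamini-Hochberg adjustment. Of the tissue markers 6 passed, 5 to 6 with an array left out, 10 with the signals as deposited, 10 with the replicate block, 1 without the trend and 0 by that t-test. Beside these counts of listed genes and markers, the block called 1033 of 18769 probe sets higher and 260 lower. Without dim probe sets 201 of 11261 were higher and 110 lower.

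The replicate numbers are shared by the diets, but nothing says that they mark a shared batch. Deviations of same-numbered arrays from their diet's mean correlated at 0.02 to 0.06, and those of arrays with different numbers at -0.08 to 0.04. METH replicate 1 correlated more with control replicate 2 (0.04) than with its own number (0.02). Such a correlation leaves out any shift common to all probe sets of an array. Whether the numbers mark a shared batch therefore cannot be told from it. The block raised the calls over all probe sets from 158 higher and 78 lower to 1033 and 260, and they were 114 and 381 as deposited, 131 and 169 with median centring, 147 and 211 with 75th percentile centring and 161 and 264 with quantile normalization. The within-array differences gave a sign-flip p of 0.75 for the ferritins and 0.25, the smallest that 3 pairs allow, for the metallothioneins under the block. Over all probe sets without the trend 17 were higher and 7 lower, and by the methods' t-test after adjustment 2 and 0.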
